A study of Mus musculus with 6 samples.

Results

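Galnt9 and 8 other genes of the Galnt family (Galnt1, Galnt2, Galnt7, Galnt11, Galnt13, Galnt14, Galnt16 and Galnt18) were described in the mouse hippocampus, 9 of 23282 gene rows and 9 of the 19 rows that belong to this family. They were taken by gene symbol. Galnt9 was chosen because its level differed between the genotypes, so the values of the 9 genes in that comparison are given as a description, without p-values. The libraries were 3 labelled PHF2 t/g and 3 labelled WT, all from hippocampus of C57BL/6 mice aged 16 weeks. PHF2 is a Jumonji-domain protein linked to demethylation of histone H3 lysine 9, and its PHD finger binds the H3 lysine methylation found at active promoters. The construct behind the label, its promoter and the cells that carry it are not described in the labels. The labels also do not say that the libraries came from separate animals, so each p-value below reflects only library-to-library spread, which may be technical. The comparison sets mRNA of hippocampus libraries labelled PHF2 t/g against that of libraries labelled WT. Markers of other brain regions also differed between these libraries, as given below.

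Galnt genes encode polypeptide N-acetylgalactosaminyltransferases. These Golgi enzymes take N-acetylgalactosamine (GalNAc) from its nucleotide sugar and attach it to serine or threonine of a protein, the first step of mucin-type O-glycosylation. The sugar is then extended to core structures, branched and often capped with sialic acid. The members of the family differ in the cells that make them and in the sites they use: some act on bare peptides, others prefer peptides that already carry a GalNAc. GALNT9 was described as a brain enzyme in humans and falls into a sequence subfamily with GALNT17 and GALNT18. RefSeq lists Galnt9 also as an older name of Galnt10, and Wbscr17 as an older name of Galnt17. The count files hold separate rows for Galnt9, Galnt10 and Wbscr17.

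Galnt9 lies on the plus strand of mouse chromosome 5, from 110544032 to 110621383 (GRCm38, RefSeq). The RefSeq promoter table lists 2 starts for it, 59.2 kb apart, and neither is the outermost start of the gene's RefSeq span, so the first window below lies inside that span. The 250 bases before each start are shown because the files hold 1 row for the gene, which does not separate transcripts by their start. The annotated ends of its 2 coding transcripts in GENCODE M21 lie 5 bases apart. Capitals mark CG, a dinucleotide at which DNA can be methylated. It was searched as CG, which reads the same on both strands, with no overlap between matches.
Galnt9 upstream start, chr5:110544105-110544354, plus strand: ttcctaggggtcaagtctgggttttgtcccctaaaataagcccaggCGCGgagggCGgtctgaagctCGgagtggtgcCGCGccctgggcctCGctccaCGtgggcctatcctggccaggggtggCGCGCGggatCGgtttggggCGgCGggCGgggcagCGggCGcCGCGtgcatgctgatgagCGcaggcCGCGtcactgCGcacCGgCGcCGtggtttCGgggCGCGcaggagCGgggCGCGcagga
Galnt9 downstream start, chr5:110603255-110603504, plus strand: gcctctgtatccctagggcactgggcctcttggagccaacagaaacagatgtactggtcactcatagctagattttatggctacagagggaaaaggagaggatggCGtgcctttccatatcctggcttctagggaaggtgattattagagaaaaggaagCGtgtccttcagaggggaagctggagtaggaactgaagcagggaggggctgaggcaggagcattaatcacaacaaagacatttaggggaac
The upstream window held 32 CG and was 72.4% G or C, and 4.58% of 32851 RefSeq promoter windows of this length held at least as many. The downstream window held 2 CG at 50.0% G or C, and 81.2% of windows held at least as many. Over all windows the median was 6 CG and the quartiles were 2 and 16. The 8 windows of the other matched members (Galnt7, Galnt11, Galnt13, Galnt14 and Galnt16) held 4 to 31 CG, so the 2 Galnt9 windows lay above and below that range. Galnt1, Galnt2 and Galnt18 were not in the table used here.

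Libraries were made with the QuantSeq kit, which reads about 1 tag per transcript near its 3′ end, so a longer transcript gives no more tags. Levels of different genes are set side by side per tag, and overlaps between genes were not corrected for. Total counts were 6053363 to 8612720 for PHF2 t/g libraries and 5512171 to 8844718 for WT libraries. Levels are CPM, counts relative to the library total, which was first scaled by TMM, a factor that aligns the bulk of genes between libraries. WT replicate 2 stood apart from the other 5 libraries when libraries were ordered by multidimensional scaling (first coordinate 1.08, the others −0.533 to 0.152). PHF2 t/g replicate 1 held 292 CPM of the choroid plexus transcript Ttr, against 1.29 to 4.46 CPM elsewhere. Phf2 itself, a 3′ tag that may lie outside the construct and so does not check the labels, was at 35.5, 37.3 and 43.1 CPM in PHF2 t/g libraries and at 38.3, 35.6 and 39.3 CPM in WT (edgeR adjusted p = 0.929). Of 10 marker lists, the summed level of 11 hippocampal neuron markers was 6684 to 7465 CPM in PHF2 t/g mice against 8008 to 8951 CPM in WT, and none of the 11 was at 0 in all libraries. By edgeR 1 of its 10 tested genes was higher (Wfs1) and 0 lower, where 0.779% of all tested genes were higher and 1.49% lower. The summed level of thalamic markers was also lower in PHF2 t/g without overlap (0 of 6 tested genes called). That of hypothalamic markers was higher, at 53.1 to 57.0 CPM in PHF2 t/g mice and 9.68 to 12.5 CPM in WT (3 of 5 genes called higher: Avp, Oxt and Trh). The sums were also higher without overlap for striatum (3 of 7: Rgs9, Tac1 and Penk) and for endothelium and mural cells (2 of 6: Flt1 and Ly6c1). For choroid plexus, a list that includes Ttr, the groups were barely apart (0 of 4 called). Its sums were 159 to 566 CPM in PHF2 t/g and 141 to 157 CPM in WT. Summed levels of oligodendrocyte and cerebellar markers overlapped between the groups, although 2 of 6 oligodendrocyte genes (Mag and Opalin) and 1 of 4 cerebellar genes (Cbln1) were called lower. The sums of astrocyte and microglial markers overlapped too, with 0 of 5 genes called in each. The cerebellar granule cell marker Gabra6 was the 1 marker at 0 in all 6 libraries. The shifts include markers of regions other than the hippocampus (hypothalamus, striatum and thalamus). The part of these shifts in the values of Galnt9 and the other Galnt genes was not tested. Genotype, the extent of the tissue taken, the number of cells of a type and the RNA per cell cannot be told apart here.

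Galnt9 was lower in every PHF2 t/g library than in any WT library. It had 152, 135 and 103 counts, or 16.9, 19.2 and 16.6 CPM, in PHF2 t/g mice, against 294, 385 and 273 counts, or 56.0, 45.2 and 41.3 CPM, in the WT libraries. The 3 PHF2 t/g values lay close together, the 3 WT values were wider apart, and the groups did not overlap. The means were 17.5 ± 1.42 CPM in PHF2 t/g libraries and 47.5 ± 7.59 CPM in WT (SD, n = 3 each), a 2.70-fold lower level with a log2 fold change of −1.43 (SE 0.133, 95% interval −1.71 to −1.15). The spread between libraries was 8.10% of the mean in PHF2 t/g and 16.0% in WT, where counting alone would give 8.77% and 5.61%. Of 12831 genes tested, 9 had a lower log2 fold change than Galnt9. No gene in the GENCODE M21 annotation overlapped Galnt9 on either strand, so its tags are not shared with an annotated partner. Leaving out WT replicate 2, PHF2 t/g replicate 1 or both gave log2 fold changes of −1.46, −1.40 and −1.43.

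**Figure D1:**
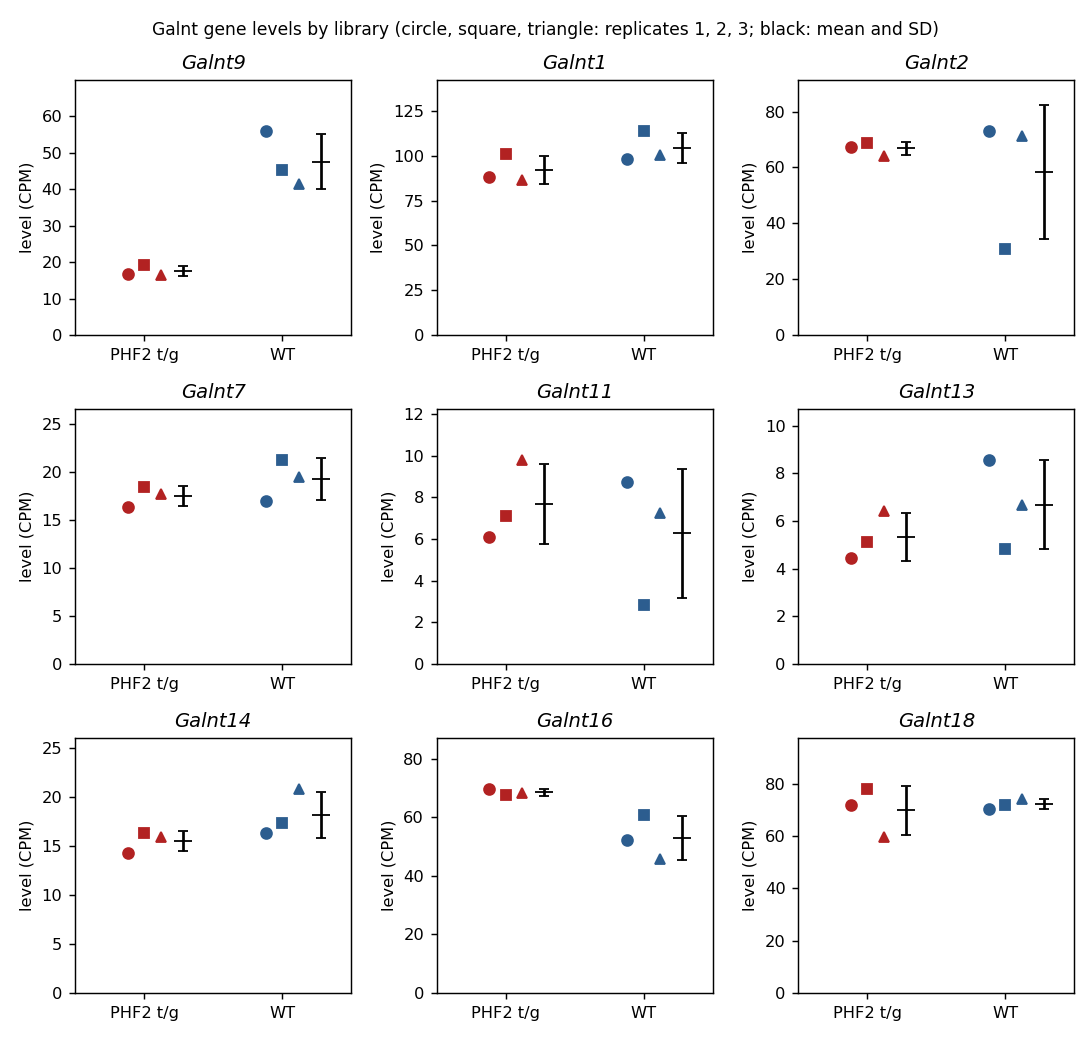
Level in CPM (y axis, from 0) of the 9 Galnt genes in each PHF2 t/g library (left, red) and each WT library (right, blue); the symbol gives the replicate number, and the black mark is the mean with its SD. Galnt9 stood at 16.6 to 19.2 CPM in PHF2 t/g libraries and at 41.3 to 56.0 CPM in WT, and Galnt2 and Galnt11 had a low value in WT replicate 2.

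The share of Galnt9 among all tags of the 19 Galnt family rows was 3.94%, 4.22% and 4.13% in PHF2 t/g libraries and 11.8%, 10.1% and 9.09% in WT. The family rows other than Galnt9 summed to 410 ± 25.3 CPM in PHF2 t/g libraries and 411 ± 6.86 CPM in WT, so the summed level of the rest of the family differed by less than the spread between libraries. With Galnt9 the sum was 428 ± 26.6 CPM in PHF2 t/g libraries and 459 ± 12.6 CPM in WT. In PHF2 t/g the order of the 9 genes by mean level was Galnt1, Galnt18, Galnt16, Galnt2, Galnt9, Galnt7, Galnt14, Galnt11 and Galnt13. Galnt9 was there in a range shared with Galnt7 (16.3 to 18.5 CPM), well under Galnt2 (64.0 to 68.9 CPM). In WT Galnt9 was also in the fifth place, but its range overlapped that of Galnt16 above it (45.8 to 61.0 CPM) and not that of Galnt7 below it (16.9 to 21.3 CPM).

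The first group of the other members are enzymes that start O-glycans on bare peptides. Galnt1, widely expressed and the most abundant member in both genotypes, had 88.2, 101 and 86.7 CPM in PHF2 t/g libraries and 98.4, 114 and 100 CPM in WT. These ranges overlapped, and the log2 fold change was −0.18 (SE 0.094). Galnt13, a neuronal enzyme close to Galnt1 in sequence, was the least abundant of the 9 in PHF2 t/g, at 4.44, 5.11 and 6.44 CPM against 8.57, 4.82 and 6.66 CPM in WT. With 36 to 45 counts per library, its log2 fold change of −0.31 had a 95% interval of −0.84 to 0.23. It was −0.12 without WT replicate 1, −0.19 without PHF2 t/g replicate 1 and −0.52 without WT replicate 2.

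Galnt2, another broadly used starter enzyme, was at 67.4, 68.9 and 64.0 CPM in PHF2 t/g libraries and at 73.1, 30.7 and 71.1 CPM in WT. WT replicate 2 held less than either of the other WT libraries, and the direction rests on it. The log2 fold change was 0.21 (95% interval −0.79 to 1.21) with all libraries and −0.11 without WT replicate 2. Galnt11, which glycosylates receptors of the LDL receptor family, showed the same low value in that library: it had 6.11, 7.10 and 9.81 CPM in PHF2 t/g libraries and 8.76, 2.82 and 7.26 CPM in WT. The log2 fold change of Galnt11 was 0.33 (95% interval −0.50 to 1.16) with all libraries and −0.08 without WT replicate 2. The 2 groups overlapped for both genes. Between libraries of WT the level of Galnt2 varied by 41.1% and that of Galnt11 by 49.2%, against a counting error of 5.19% and 15.9%.

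Galnt14 and Galnt16 are relatives of Galnt2 in sequence, and their groups did not overlap, in opposite directions. Of all tested genes 20.6% had groups that did not overlap. Galnt14, linked in human cells to glycosylation of death receptors, had 14.3, 16.3 and 15.9 CPM in PHF2 t/g libraries and 16.4, 17.4 and 20.9 CPM in WT. The gap between the highest PHF2 t/g and the lowest WT library was small beside the spread, and the log2 fold change was −0.24 (95% interval −0.55 to 0.07). Galnt16 had 69.8, 67.6 and 68.2 CPM in PHF2 t/g mice against 52.2, 61.0 and 45.8 CPM in WT, a log2 fold change of 0.37 (SE 0.109, 95% interval 0.14 to 0.60). The 3 PHF2 t/g libraries were nearly equal, and each was above all 3 WT libraries. Galnt2, Galnt14 and Galnt16 each have an annotated gene overlapping their last 2000 bases. It lies on the same strand for Galnt2 and on the opposite strand for Galnt14 and Galnt16. Strand use in the counting is not given, so tags of the overlapping pairs cannot be told apart. Only the outermost end of each gene was searched. Annotated coding ends lie up to 32188 bases apart in Galnt1, 17001 in Galnt11, 385176 in Galnt13, 14352 in Galnt14 and 5310 in Galnt16. Overlaps at the inner ends were not searched.

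Galnt7, which prefers peptides that already carry GalNAc, was at 16.3, 18.5 and 17.7 CPM in PHF2 t/g libraries and at 16.9, 21.3 and 19.5 CPM in WT (log2 fold change −0.15, 95% interval −0.45 to 0.15). The ranges overlapped, and the value was −0.24 without WT replicate 1, −0.10 without PHF2 t/g replicate 1, −0.07 without WT replicate 2 and −0.02 with both of the last libraries left out. Galnt18, from the same subfamily as Galnt9, had 71.9, 78.2 and 59.9 CPM in PHF2 t/g libraries and 70.6, 72.0 and 74.4 CPM in WT, with a log2 fold change of −0.05 (SE 0.104, 95% interval −0.26 to 0.17). The WT values fell inside the range of the PHF2 t/g values. This sign turned with library size alone (0.06), a scaling that puts the median of all genes at a log2 fold change of 0.12, where TMM puts it at 0.02, and without PHF2 t/g replicate 3 (0.05). The third gene of the subfamily, Wbscr17, was at 35.0 ± 7.53 CPM in PHF2 t/g libraries and 36.6 ± 4.10 CPM in WT (log2 fold change −0.06; edgeR adjusted p = 0.905). The test between the change of Galnt9 and that of its relatives was not run.

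In edgeR's quasi-likelihood test, with p-values adjusted over all genes by the method of Benjamini and Hochberg, 1 of the 9 genes, Galnt9, passed the threshold of 0.05, where 2.27% of all 12831 tested genes passed, 1.49% as lower and 0.779% as higher. The groups did not overlap for 3 of the 9, where 20.6% of all tested genes did not. Since the comparison was used to choose the genes, nothing is read from these counts. Galnt16 joined Galnt9 with library size alone, without the low-count filter, without WT replicate 2 and at a threshold of 0.10. All 9 members passed the low-count filter. The median log2 fold change of the 8 members other than Galnt9 was −0.10 under TMM, where that of all tested genes was 0.02. Library size alone, which shifts nearly all genes alike, gave 0.0033 for the 8 and 0.12 for all genes.

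**Figure D2:**
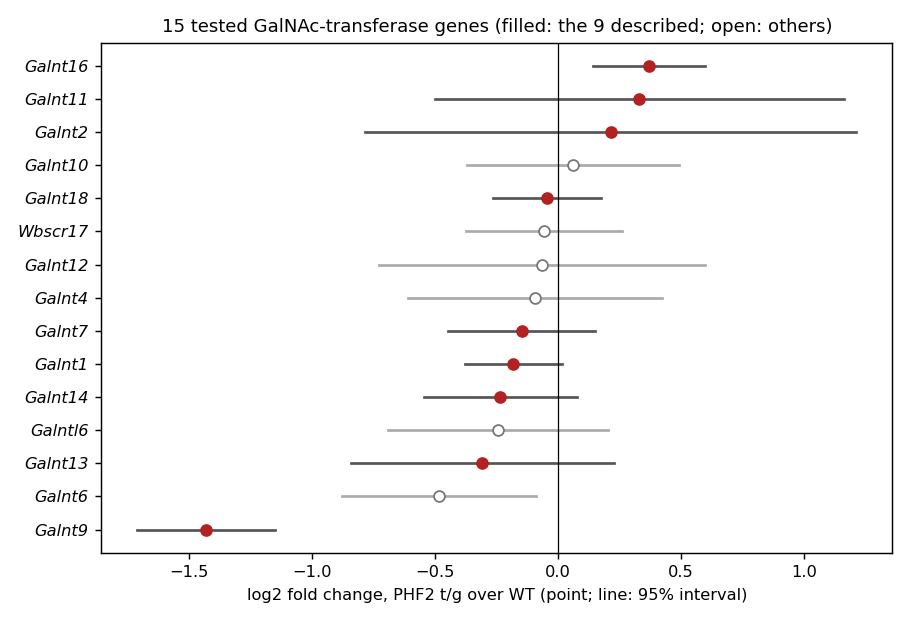
Log2 fold change of PHF2 t/g over WT (x axis; points) with its 95% interval (lines) for the 15 GalNAc-transferase genes that passed the low-count filter; filled points are the 9 genes described and open points the other 6. Galnt9 stood at −1.43, and the other 14 lay between −0.49 (Galnt6) and 0.37 (Galnt16).

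Of the 10 family rows that are not among the 9 genes, 6 could be tested and none passed (edgeR, 0 higher and 0 lower). The other 4, among them Galnt3, averaged no more than 0.525 CPM in either group. Galnt6 had the smallest p of the 6, with 8.39 ± 0.827 CPM in PHF2 t/g libraries and 11.7 ± 2.27 CPM in WT (log2 fold change −0.49, SE 0.188; edgeR adjusted p = 0.216). Galntl6 followed, at 7.17 ± 1.71 CPM in PHF2 t/g libraries and 8.49 ± 0.961 CPM in WT (edgeR adjusted p = 0.65). Galnt10, a follow-up enzyme like Galnt7 and the gene that once carried the name Galnt9, was at 8.29 ± 1.60 CPM in PHF2 t/g libraries and 7.83 ± 0.469 CPM in WT (edgeR adjusted p = 0.93).

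The genes that act before and after the GalNAc-transferases were read next, in 6 lists chosen by function, the first being the 10 family rows above. Of the 58 tested genes in the 6 lists none passed by edgeR or limma-voom, where 2.27% and 1.26% of all tested genes did. DESeq2 gave an adjusted p to 47 listed genes and none passed, where 2.56% of 10135 genes did. By edgeR 10 of the 58 had an unadjusted p under 0.05, where 14.7% of all tested genes did. The count was 5 of 70 by DESeq2 (7.43% of all genes) and 10 of 58 by limma-voom (15.4%). By edgeR without PHF2 t/g replicate 1 or without PHF2 t/g replicate 2 it was 5 of 59 each (9.79% and 11.5% of all tested genes). Leaving out WT replicate 2 gave 5 of 58 (14.9%), and leaving out WT replicate 2 and PHF2 t/g replicate 1 together gave 3 of 58 (12.05%). Past the adjusted threshold by edgeR, 1 listed gene, B3galnt2 each time, was found with library size alone, without the low-count filter or without WT replicate 1. The same gene alone passed at an adjusted threshold of 0.10.

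The enzymes that extend and branch the GalNAc were at low levels, and 3 of 7 could be tested. C1galt1, which adds galactose to make core 1, averaged 0.942 CPM in PHF2 t/g libraries and 0.877 CPM in WT, below the filter. Its chaperone C1galt1c1 was at 17.6 ± 0.647 CPM in PHF2 t/g libraries and 18.4 ± 2.45 CPM in WT (log2 fold change −0.06; edgeR adjusted p = 0.895). Gcnt4, which makes the core 2 branch, was at 2.22 ± 0.877 CPM in PHF2 t/g libraries and 4.07 ± 0.651 CPM in WT, and this difference (log2 fold change −0.92, SE 0.326) did not pass (edgeR adjusted p = 0.167). Of 8 tested sialyltransferases that can cap O-glycans, 5 lay below 0 and none passed. St6galnac4, which adds sialic acid to the GalNAc of an already sialylated core, was at 22.6 ± 1.10 CPM in PHF2 t/g libraries and 29.6 ± 4.54 CPM in WT (log2 fold change −0.40; edgeR adjusted p = 0.142). St6galnac6, which acts mainly on glycolipids, was at 172 ± 18.2 CPM in PHF2 t/g libraries and 199 ± 11.9 CPM in WT (log2 fold change −0.21; edgeR adjusted p = 0.257).

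The supply of nucleotide sugars showed no gene past the test among 15, with a median log2 fold change of −0.01 and a range of −0.22 to 0.34. Pgm3, a phosphomutase of the hexosamine pathway, was at 27.1 ± 3.47 CPM in PHF2 t/g libraries and 21.4 ± 0.577 CPM in WT (edgeR adjusted p = 0.219). Uap1, the next enzyme, which makes UDP-GlcNAc, was at 47.5 ± 3.88 CPM in PHF2 t/g libraries and 55.3 ± 2.28 CPM in WT (edgeR adjusted p = 0.324). Receptors of the LDL receptor family, among which Galnt11 has acceptors, also held no gene past the test among 7. Sorl1, a sorting receptor, had 99.4 ± 6.88 CPM in PHF2 t/g libraries and 88.9 ± 4.32 CPM in WT (edgeR adjusted p = 0.416), and Lrp1b had 8.69 ± 1.06 CPM in PHF2 t/g libraries and 10.5 ± 0.458 CPM in WT (edgeR adjusted p = 0.495).

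Genes of O-linked pathways that start with another sugar (mannose, GlcNAc, fucose, glucose or xylose) were read as the comparison within O-glycosylation. None of 19 passed. With TMM 17 lay above 0, where 53.9% of all tested genes did. The count was 15 with DESeq2's size factors (52.5% of all genes), 19 with library size alone (71.4%), and 13 without WT replicate 1 or without WT replicate 3 (52.4% and 52.6%). The median log2 fold change was 0.13, against 0.02 for all tested genes. B3galnt2, which adds a GalNAc to the O-mannose glycan of dystroglycan, came closest: it was at 35.0 ± 1.40 CPM in PHF2 t/g libraries and 25.4 ± 3.42 CPM in WT (log2 fold change 0.47, SE 0.125; edgeR adjusted p = 0.0527, 0.0161 to 0.313 over the alternatives). Mgea5, the enzyme that removes O-GlcNAc, was at 149 ± 12.7 CPM in PHF2 t/g libraries and 126 ± 12.8 CPM in WT (log2 fold change 0.25; edgeR adjusted p = 0.195).

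**Figure D3:**
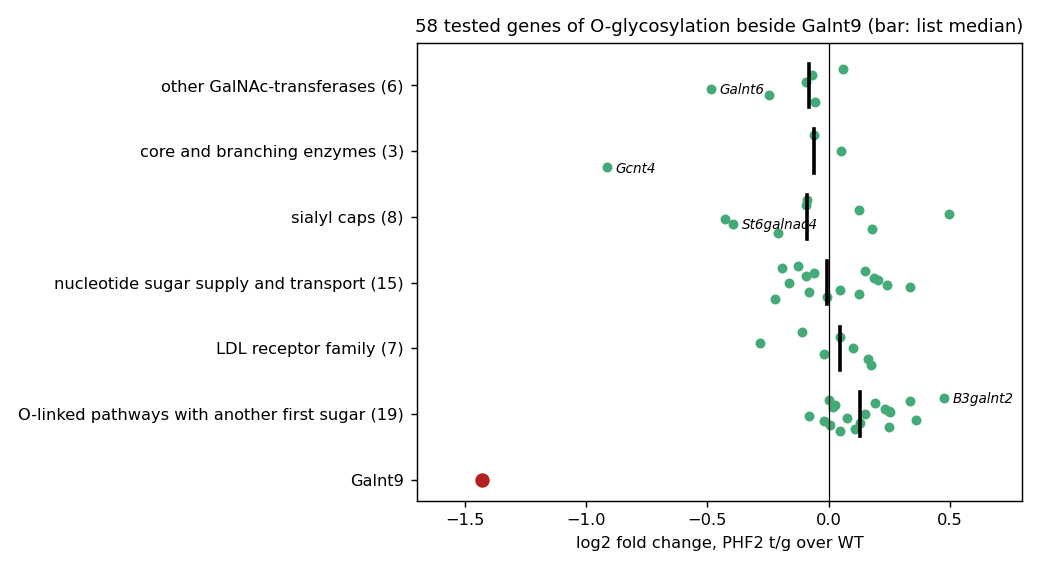
Log2 fold change of PHF2 t/g over WT (x axis) of the 58 tested genes in 6 lists of O-glycosylation (rows, with the number of genes; each point is 1 gene, the bar is the list median), with Galnt9 in the lowest row. The 58 genes lay between −0.92 (Gcnt4) and 0.50, and Galnt9 at −1.43.

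The genes next to Galnt9 on chromosome 5 were examined because their values did not choose it. RefSeq lists 36 genes whose lower chromosome coordinate, on either strand, lies within 500000 bases of that of Galnt9. Of these 22 had a row in the files and 16 could be tested. None of the 16 passed, where 2.27% of all tested genes did, so the count of 0 is near the background. None had an unadjusted p under 0.05 by edgeR (14.7% of all tested genes), DESeq2 (7.43%) or limma-voom (15.4%); without WT replicate 2 this count was 1 by edgeR, with 0 past the adjusted threshold. Their log2 fold changes ran from −0.21 to 0.36 with a median of 0.03, against 0.02 for all tested genes. The nearest gene on the left, the long noncoding RNA A630023P12Rik, averaged 0.856 CPM in PHF2 t/g libraries and 0.534 CPM in WT and was not tested. The nearest on the right, Noc4l, a nucleolar protein of ribosome assembly, was at 18.4 ± 2.09 CPM in PHF2 t/g libraries and 18.7 ± 0.768 CPM in WT (log2 fold change −0.03, SE 0.141; edgeR adjusted p = 0.947). The 2 neighbours with the smallest p were Pxmp2, a peroxisomal membrane channel, at 20.3 ± 0.857 CPM in PHF2 t/g libraries and 23.5 ± 1.28 CPM in WT (edgeR adjusted p = 0.47), and Ulk1, a kinase that starts autophagy, at 186 ± 11.0 CPM in PHF2 t/g libraries and 201 ± 7.30 CPM in WT (edgeR adjusted p = 0.551).

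**Figure D4:**
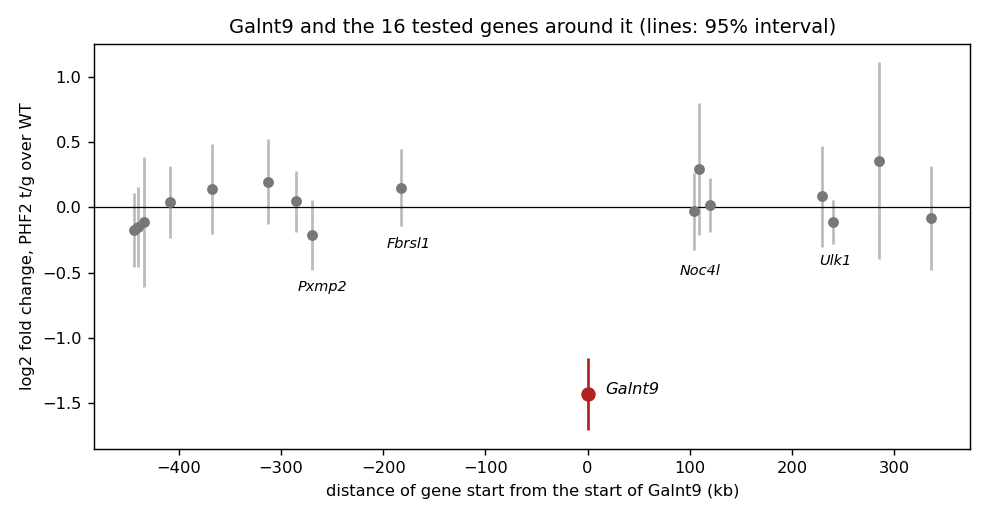
Log2 fold change of PHF2 t/g over WT with its 95% interval (y axis) for Galnt9 (red) and the 16 tested genes around it (grey). The x axis is the distance from Galnt9 in kb. It runs between the lower chromosome coordinates of the genes, taken as starts on either strand. Galnt9 stood at −1.43 and its tested neighbours between −0.21 and 0.36.

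The genes whose profile over the 6 libraries was most like that of Galnt9 were found by the root mean square difference of log2 CPM after each gene was centred on its own mean. The profile holds the group difference that chose Galnt9, so these are genes with a similar group difference, and no test is given. The nearest was Snord89, a small nucleolar RNA whose tags can come from an overlapping gene (difference 0.16, Pearson's r 0.98 over 6 libraries), at 12.8 ± 1.81 CPM in PHF2 t/g libraries and 30.2 ± 2.05 CPM in WT. Spred2, an inhibitor of Ras-ERK signalling, was at 8.86 ± 0.298 CPM in PHF2 t/g libraries and 19.6 ± 0.916 CPM in WT (difference 0.21). The other 3 were at low levels: Gm17751 at 0.552 CPM in PHF2 t/g libraries and 1.64 CPM in WT, Fam205a2 at 1.07 CPM in PHF2 t/g libraries and 3.69 CPM in WT, and Hist1h2ad, a histone H2A gene, at 1.20 CPM in PHF2 t/g libraries and 2.76 CPM in WT (differences 0.20, 0.27 and 0.27). No other Galnt gene was among them; the closest member, Galnt13, ranked 1252 of 12830 genes.

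**Figure D5:**
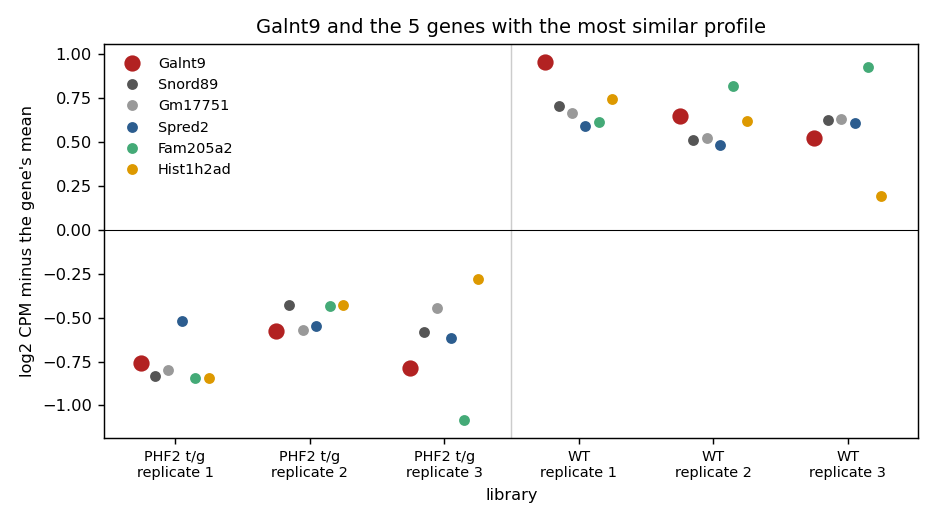
Log2 CPM of Galnt9 (large red points) and of the 5 genes with the most similar profile in each library, centred on each gene's mean (y axis); the libraries are on the x axis, PHF2 t/g left and WT right. All 6 genes lay below their mean in the 3 PHF2 t/g libraries and above it in the 3 WT libraries.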

How the data were processed

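For each of the 6 libraries the authors deposited raw tag counts by gene symbol, without normalization. Trizol RNA and the QuantSeq kit were used, per the labels' protocols; the submitters' processing notes name Bowtie2, edgeR and the build mm10 (GRCm38). Versions, counting program, annotation and strand use are not stated there. Genes were kept by filterByExpr, scaled by TMM and tested with edgeR 4.0.16 in R 4.3.3 (glmQLFit with robust fitting, then glmQLFTest on genotype alone; 12831 genes, Benjamini-Hochberg threshold 0.05). Standard errors and 95% intervals come from the F statistic. No 2 libraries agreed within sampling noise. Counting errors cover counting only.

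The genes and lists were chosen with earlier results of these data known. Named are the 9 genes; in each list and among the neighbours the genes past the threshold, or else the 2 with the smallest p; the nearest gene on each side of Galnt9; Phf2; and the 5 genes most like Galnt9 (log2 CPM, prior count 2). Wbscr17, Galnt3, Galnt10, C1galt1, Ttr, Gabra6 and the marker genes were named after their values were seen. Alternatives used DESeq2 1.42.0 and limma 3.58.1 (voom), other scalings and filters, a block for the replicate number, 1 library fewer at a time, and, added after seeing the data, WT replicate 2 and PHF2 t/g replicate 1 left out together. Coordinates and promoter windows are from RefSeq (GRCm38.p6), where 6 of the 9 genes had a window, and overlaps from GENCODE M21.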

Additional observations from a re-analysis of the deposited data

How the results depend on the processing

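The log2 fold change of Galnt9 stayed between −1.53 and −1.32 over 16 alternatives. Galnt2 and Galnt11 changed sign without WT replicate 2, and Galnt18 with library size alone or without PHF2 t/g replicate 3. Galnt1 ranged from −0.26 to −0.08, Galnt7 from −0.24 to −0.02, Galnt13 from −0.52 to −0.12 and Galnt14 from −0.31 to −0.14. Of all genes 291 passed by edgeR as described, 162 by limma-voom, 606 without the low-count filter, 149 without the robust fit, 547 at a threshold of 0.10, 49 (without PHF2 t/g replicate 1) to 392 (without WT replicate 2) with 1 library left out, and 140 when PHF2 t/g replicate 1 and WT replicate 2 were left out together. Of the calls 100 of 291 were higher with TMM, 64 of 259 with DESeq2 and 207 of 277 with library size alone. Of the 9 genes 1 passed, and 2 with library size alone, without the low-count filter, at a threshold of 0.10 or without both those libraries, and 1 to 2 with 1 library left out. Of the O-glycosylation genes 0 passed, 1 with library size alone, without the low-count filter or at a threshold of 0.10, and 0 to 1 with 1 library left out. The causes were not tested. Of the neighbours 0 passed throughout. With the replicate number as a block 299 genes, 1 of the 9 and 0 listed genes passed; deviations of same-numbered libraries had correlations of −0.004, 0.12 and 0.08, so the numbers were not taken as pairs, and not every library correlated best with its own number. Galnt11 and Galnt13 had the fewest counts of the 9 genes, with 24 to 61 per library. The spread of Galnt11 between WT libraries (49.2%) was above its counting error (15.9%).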
